A study of Mus musculus with 18 samples.

Results

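Foxp3 and 8 other genes used to recognise regulatory T cells were followed across 9 total RNA libraries of mouse CD4+ T cells. They were taken by name from a table of 23219 features: Foxp3, Ctla4, Lrrc32, Nrp1, Entpd1, Nt5e, Gpr83, Izumo1r and Capg. All 9 had a row, Izumo1r under its older symbol Folr4. The libraries formed 3 groups of 3. Hopx-high and Hopx-low cells were antigen-specific T cells that dendritic cells, which present antigen, had activated, and that carried a high or a low level of Hopx, a small homeodomain protein that acts without binding DNA directly. Naive cells were the reference for both. All came from lymph nodes and spleen of C57BL6 mice, and the labels give the same protocol for every sample, naive included: chimeric antibodies that carry antigen to dendritic cells were given intraperitoneally, and cells were collected 5 days later. The labels give no age or sex and do not say how cells were sorted by Hopx or whether animals were pooled. Nor do they tie libraries to separate animals. The p-values thus speak only of the spread among the libraries, which may be partly technical. Replicate 3 of each group differed from replicates 1 and 2 in the sex-linked transcripts Xist and Ddx3y, as given below. The libraries of a group were therefore not all from the same material.

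Regulatory T cells are CD4+ T cells that restrain other immune cells, and Foxp3 is the transcription factor that defines them. CTLA-4 takes costimulatory ligands away from antigen-presenting cells, GARP (the product of Lrrc32) holds latent TGF-beta at the cell surface, and the ectoenzymes CD39 (Entpd1) and CD73 (Nt5e) act in sequence to turn extracellular ATP into adenosine. Several of these genes, Ctla4 among them, are also switched on in conventional T cells after activation, and high FR4 (Izumo1r) together with CD73 is also used to mark anergic CD4+ T cells in mice.

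The promoters of Foxp3, Ctla4 and Izumo1r are shown because these genes had large rises in both activated groups, described below, and because Foxp3 has 2 annotated starts. Sequences are RefSeq's for GRCm38.p6, 250 bases before to 50 after a start, 5′ to 3′ on the gene's strand. Foxp3 start 1 is chrX:7579426-7579725 and start 2 chrX:7580233-7580532, both on the plus strand, Ctla4 is chr1:60908775-60909074 on the plus strand, and Izumo1r is chr9:14903718-14904017 on the minus strand. Capitals mark matches, on either strand, to GGAAA (core of NFAT sites), CAGAC (SMAD), TGTGGT (RUNX) and TTCNNNGAA (STAT). Read from the other strand, the NFAT core is TTTCC, the SMAD motif is GTCTG and the RUNX motif is ACCACA.
Foxp3 start 1: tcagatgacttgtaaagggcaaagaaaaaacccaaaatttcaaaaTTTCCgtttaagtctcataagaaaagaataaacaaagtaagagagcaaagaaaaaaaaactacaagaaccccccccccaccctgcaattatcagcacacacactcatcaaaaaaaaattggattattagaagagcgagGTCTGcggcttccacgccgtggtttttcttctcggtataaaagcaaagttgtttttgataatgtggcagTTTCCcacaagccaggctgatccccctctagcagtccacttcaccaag
Foxp3 start 2: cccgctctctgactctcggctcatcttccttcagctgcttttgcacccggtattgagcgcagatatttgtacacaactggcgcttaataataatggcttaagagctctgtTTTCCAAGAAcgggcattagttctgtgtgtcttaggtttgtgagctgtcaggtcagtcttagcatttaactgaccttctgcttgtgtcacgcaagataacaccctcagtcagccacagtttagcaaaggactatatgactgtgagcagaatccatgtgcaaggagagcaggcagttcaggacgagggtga
Ctla4: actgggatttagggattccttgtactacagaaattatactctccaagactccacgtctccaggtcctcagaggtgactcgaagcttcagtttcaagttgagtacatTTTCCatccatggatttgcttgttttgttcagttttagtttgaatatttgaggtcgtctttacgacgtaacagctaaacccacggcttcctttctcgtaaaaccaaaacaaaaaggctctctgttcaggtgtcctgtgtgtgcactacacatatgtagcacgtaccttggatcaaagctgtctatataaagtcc
Izumo1r: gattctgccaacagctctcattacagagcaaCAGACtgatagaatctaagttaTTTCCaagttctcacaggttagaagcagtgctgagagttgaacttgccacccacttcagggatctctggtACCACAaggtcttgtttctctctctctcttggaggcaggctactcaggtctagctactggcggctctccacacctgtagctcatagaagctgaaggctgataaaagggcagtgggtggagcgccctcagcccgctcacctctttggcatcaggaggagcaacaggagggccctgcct

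GGAAA occurred in each of these 4 windows. In Foxp3 start 1 it lay at -205 and 3 relative to the start, in Foxp3 start 2 at -140, where it overlapped the STAT match at -139, in Ctla4 at -144 and in Izumo1r at -197. Over all promoters of the 8 genes found in the RefSeq table, 6 of 10 held GGAAA, against 61.3% of all 32851 promoters of that length. CAGAC was in 7 of 10 (49.6% of all), TGTGGT in 2 (16.8%) and the STAT motif in 1 (8.30%). The AP-1 motif TGANTCA (7.81% of all) and the forkhead motif GTAAACA (3.65%) were in none of the 10. A match is a string of letters and not a known site.

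Levels are bases of coverage per megabase covered in a library, which held 105 to 329 megabases. In each library low values clustered near a single read (medians of 108 to 115 bases), and a level of 1 stood for about 0.945 to 2.94 such reads, so a low level rests on a handful of reads. Levels are compared between libraries and not between genes, because transcript lengths were not at hand. Hopx itself was at 34.2, 26.1 and 23.1 in the Hopx-high libraries, 5.90, 7.49 and 7.59 in the Hopx-low libraries and 1.76, 0 and 1.15 in the naive libraries, which follows the labels. The CD4+ T cell markers Cd3e, Cd3g, Cd3d, Cd4 and Cd2 summed to 2324 to 2759 in Hopx-high, 2103 to 2867 in Hopx-low and 2725 to 3117 in naive libraries. Hopx-high replicate 3 and Hopx-low replicate 1 stood apart: Lars2, which encodes the mitochondrial enzyme that charges leucine tRNA, took 18.9% and 17.98% of their bases, against 0.525% to 6.55% in the other 7, and they were the shallowest at 110 and 105 megabases, against 206 to 329.

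In Hopx-high against naive cells, 5 of the 9 genes rose: Ctla4, Izumo1r, Foxp3, Lrrc32 and Capg. In Hopx-low against naive cells, 5 rose as well: Ctla4, Izumo1r, Foxp3, Gpr83 and Capg. None fell in either comparison, and Nrp1 was not called in any. The remaining genes, Entpd1 and Nt5e, were at or near 0 in every group and too low to test. These calls are from limma on log2(level + 1), over 11320 features that reached a level of 1 in at least 3 libraries, at a Benjamini-Hochberg adjusted p below 0.05. At that rule 8.41% of all tested features were higher in Hopx-high than in naive cells and 4.75% higher in Hopx-low than in naive cells, against 5 of the 7 tested genes in each comparison. Lower calls made up 15.1% and 3.64% of tested features. The 9 genes were chosen with earlier results of these data known. Foxp3 (2.11, 0.767 and 1.39 in naive libraries), Ctla4 (1.02, 0.785 and 0) and Lrrc32 (0.719, 2.41 and 0) passed the filter through the activated libraries. These genes could hardly be called lower, so the count beside the shares of all features is no test of the 9 genes. Every activated library lay above every naive one for 6 of the 7 genes in Hopx-high and 5 in Hopx-low cells, as it did for 13.2% and 10.9% of tested features. The median log2 fold change of the 7 was 1.68 for Hopx-high and 1.51 for Hopx-low against naive cells, and over all tested features it was -0.29 and -0.16. Both comparisons use the same naive libraries. After upper-quartile scaling the median over all features was -0.08 and -0.07, and the calls split into 1418 higher and 1134 lower in the Hopx-high comparison (952 and 1714 before), while 5 of the genes were higher in each comparison as before. In libraries of mixed cells, more cells that carry a transcript and more of it per cell cannot be told apart.

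**Figure D1:**
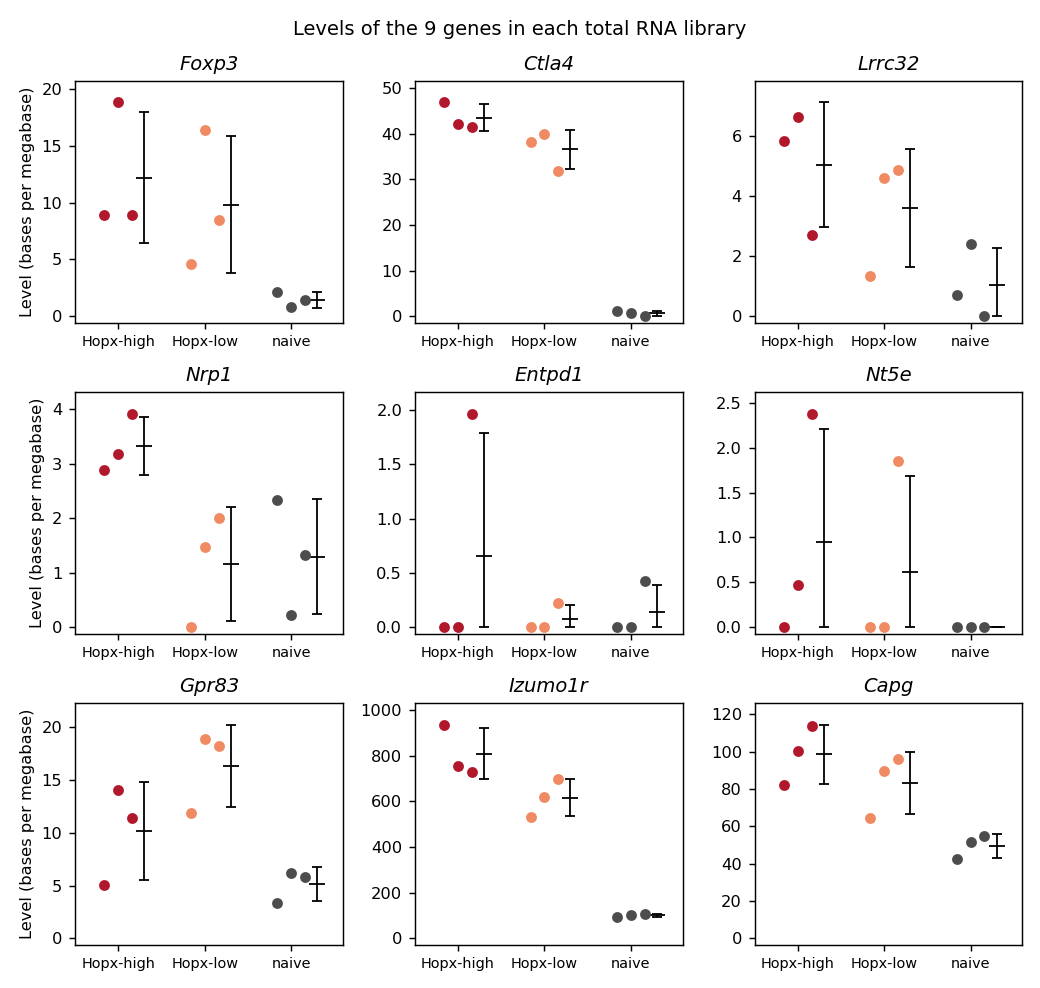
Levels of the 9 genes (vertical axes, bases per megabase, linear and different for each gene) in Hopx-high, Hopx-low and naive libraries. Each coloured point is a library in the order of replicates 1 to 3, and the black bar beside them is the mean with its SD (n = 3), cut at 0. Ctla4 and Izumo1r were far above every naive library in both activated groups, while Entpd1 and Nt5e stayed near 0.

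Foxp3, on the X chromosome (X:7579676-7595243 in GRCm38.p6, the build of all positions here), was at 8.88, 18.8 and 8.91 in the Hopx-high libraries, 4.55, 16.4 and 8.48 in the Hopx-low libraries and 2.11, 0.767 and 1.39 in the naive libraries. All 6 activated libraries were above all 3 naive ones, replicate 2 was the highest of each activated group, and the activated groups overlapped. Its mean was 8.57 times the naive mean in Hopx-high and 6.90 times in Hopx-low cells. On the log2 scale it rose by 2.40 ± 0.48 (SE) in Hopx-high (limma, adjusted p = 0.00085) and by 2.04 ± 0.48 in Hopx-low cells (adjusted p = 0.0078), each against naive cells. The naive value rests on about 10.5 reads over 3 libraries, against about 69.6 in Hopx-high and 73.0 in Hopx-low cells. Without Hopx-low replicate 2, the library richest in Foxp3 among the Hopx-low ones, the Hopx-low change was 1.62 (adjusted p = 0.069), and with replicates 1 and 2 alone it was 2.07 (adjusted p = 0.0755), neither called. The size of the Foxp3 change depends on the pseudocount, at 3.02 in Hopx-high and 2.62 in Hopx-low cells with 0.1 and at 1.38 and 1.13 with 5, all of them called.

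The Foxp3 gene overlaps Ccdc22, which encodes a subunit of an endosomal sorting complex, and the long noncoding RNA gene Flicr. The sources used here do not state whether coverage was assigned by strand. No row was found for Flicr, and the part of its reads in the Foxp3 values was not tested. Ccdc22 was at 58.0 ± 10.2 in Hopx-high, 89.1 ± 7.07 in Hopx-low and 92.7 ± 11.3 in naive cells (SD, n = 3), and the part of its reads in the Foxp3 values was not tested. It fell by 0.68 ± 0.21 on the log2 scale in Hopx-high against naive cells (limma, adjusted p = 0.025) and was not called in Hopx-low cells (adjusted p = 0.91). Of the other genes within 100 kilobases, Syp, a synaptic vesicle gene 43337 bases away, was higher against naive cells in Hopx-high (2.46 ± 0.47, adjusted p = 0.00051) and Hopx-low cells (2.32 ± 0.47, adjusted p = 0.0021). Ppp1r3f, 5395 bases away, was lower in Hopx-high cells (-0.94 ± 0.30, adjusted p = 0.026). These neighbours were picked after their values were seen.

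Ctla4 (1:60909025-60915832), the inhibitory receptor that competes with CD28, had the largest fold change of the 9 genes on this scale in both comparisons with naive cells. Its levels were 46.9, 42.2 and 41.6 in the Hopx-high libraries, 38.2, 39.9 and 31.8 in the Hopx-low libraries and 1.02, 0.785 and 0 in the naive libraries. The 3 groups did not overlap, and the naive values rest on about 4.08 reads in all. Ctla4 rose by 4.86 ± 0.36 in Hopx-high (limma, adjusted p = 6.0e-10) and 4.61 ± 0.36 in Hopx-low (adjusted p = 3.4e-09), against naive cells. With so few naive reads the size depends on the pseudocount, at 6.56 in Hopx-high and 6.30 in Hopx-low cells with 0.1. With pseudocount 5 it was 3.12 and 2.89. The largest changes over the 24 alternatives were 7.89 in Hopx-high and 7.63 in Hopx-low cells, and all of these were called. Icos, the costimulatory gene 44941 bases from Ctla4, rose too, by 1.58 ± 0.33 in Hopx-high (adjusted p = 0.0011) and 1.36 ± 0.33 in Hopx-low cells (adjusted p = 0.0090).

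Lrrc32 (7:98489305-98501831), the gene of GARP, was at 5.81, 6.61 and 2.69 in the Hopx-high libraries, 1.33, 4.60 and 4.85 in the Hopx-low libraries and 0.719, 2.41 and 0 in the naive libraries. All Hopx-high libraries were above all naive ones, by a small margin between the nearest pair, and Hopx-low replicate 1 lay among the naive values. It rose by 1.68 ± 0.54 in Hopx-high (limma, adjusted p = 0.029), and in Hopx-low cells the change of 1.24 ± 0.54 was not called (adjusted p = 0.17), against naive cells. The naive group holds about 6.69 reads. The Hopx-high call was lost without Hopx-high replicate 1, Hopx-high replicate 2, naive replicate 1 or naive replicate 3 (adjusted p = 0.063 to 0.15), with no filter (0.057), with replicates 1 and 2 alone (0.147) and on the deposited scale (0.080), and Lrrc32 did not pass a filter of 5. The Lrrc32 change in Hopx-high cells was 0.73 with pseudocount 5, 3.02 with pseudocount 0.1 and 4.31 on the deposited scale.

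Nrp1 (8:128358591-128505476) encodes neuropilin 1, a co-receptor for semaphorins and vascular growth factors that is used in mice to mark regulatory T cells of thymic origin. It was at 2.89, 3.17 and 3.92 in the Hopx-high libraries, 0, 1.48 and 2.01 in the Hopx-low libraries and 2.33, 0.230 and 1.33 in the naive libraries. The Hopx-high libraries were above all 6 others, but every value stands for few reads, about 16.7 in the whole Hopx-high group, 9.16 in Hopx-low and 9.80 in naive cells. The change against naive cells was 1.02 ± 0.53 in Hopx-high (limma, adjusted p = 0.17; 95% interval -0.08 to 2.12) and -0.12 ± 0.53 in Hopx-low cells (adjusted p = 0.92; -1.22 to 0.98). Neither was called, and these intervals leave room for a change of more than 2-fold.

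The ectoenzymes were barely covered. Entpd1 (19:40612366-40741602) had 216 bases in Hopx-high replicate 3, 63 in Hopx-low replicate 3 and 131 in naive replicate 3, and was listed at 0 in the other 6 libraries. Nt5e (9:88327609-88372089) had 122 and 261 bases in Hopx-high replicates 2 and 3 and 510 in Hopx-low replicate 3, and was listed at 0 in the other 6, all naive libraries among them. Replicate 3 of each group carried the female transcript Xist (112.4 to 187.2) and no coverage of the Y-linked Ddx3y, and replicates 1 and 2 of each group the reverse, genes picked after their values were seen. Whether that difference plays a part in these few reads was not tested. About 3 reads correspond to a level of 1.02 to 3.18, depending on the library, and levels below that, as most of these are, give no firm order between groups.

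Gpr83 (9:14859880-14870789), a G protein-coupled receptor gene long used as a marker of regulatory T cells in mice, was at 5.05, 14.1 and 11.4 in the Hopx-high libraries, 11.9, 18.9 and 18.3 in the Hopx-low libraries and 3.31, 6.24 and 5.84 in the naive libraries. Hopx-low libraries were all above the naive ones, whereas Hopx-high replicate 1 lay among the naive values. It rose by 1.51 ± 0.42 in Hopx-low (limma, adjusted p = 0.025), and in Hopx-high cells the change of 0.80 ± 0.42 was not called (adjusted p = 0.17). This does not show a difference between the activated groups, which is tested below. The Hopx-low call was lost without Hopx-low replicate 2, Hopx-low replicate 3 or naive replicate 1 (adjusted p = 0.092 to 0.14). It was also lost with no filter (0.052) and with replicates 1 and 2 alone (0.157).

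Izumo1r (9:14885814-14903951) encodes folate receptor 4, or FR4, a surface protein related to folate receptors that regulatory and anergic CD4+ T cells of mice carry at high density. It was at 935, 756 and 730 in the Hopx-high libraries, 532, 618 and 697 in the Hopx-low libraries and 94.6, 104 and 105 in the naive libraries. The 3 groups did not overlap, and with about 4247, 3993 and 734 reads they were the best covered values of the 9 genes. The mean was 7.96 times the naive mean in Hopx-high and 6.08 times in Hopx-low cells. Izumo1r rose by 2.97 ± 0.17 in Hopx-high (limma, adjusted p = 6.5e-12) and 2.58 ± 0.17 in Hopx-low cells (adjusted p = 1.9e-10). Gpr83 and Izumo1r are neighbours on chromosome 9, with a gap of 15024 bases and 0 RefSeq genes between them. Mre11a, a DNA repair nuclease gene 22755 bases from Gpr83 on its other side, was not called in either comparison (-0.51 ± 0.38 and -0.34 ± 0.38).

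Capg (6:72538282-72562983), whose product caps the ends of actin filaments, was at 82.1, 100.3 and 114 in the Hopx-high libraries, 64.6, 89.7 and 96.0 in the Hopx-low libraries and 42.4, 51.4 and 54.9 in the naive libraries. Both activated groups were above all naive libraries and overlapped each other. Capg rose by 0.97 ± 0.23 in Hopx-high (limma, adjusted p = 0.0031) and by 0.73 ± 0.23 in Hopx-low cells (adjusted p = 0.047), means 1.99 and 1.68 times the naive mean. The Hopx-high call was lost with replicates 1 and 2 alone (0.94, adjusted p = 0.0628). The Hopx-low call lies at the threshold, and 13 of the 24 alternatives lost it. It was lost without Hopx-high replicate 3, Hopx-low replicate 2 or 3, or any one of the naive libraries (adjusted p = 0.054 to 0.19). The call also failed with pseudocount 0.1 (0.0528), with only the 6 libraries compared (0.0535), with no filter (0.076) and with replicates 1 and 2 alone (0.251). It failed too without trend and robust settings (0.13), on the deposited scale (0.058) and at a limit of 0.01.

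**Figure D2:**
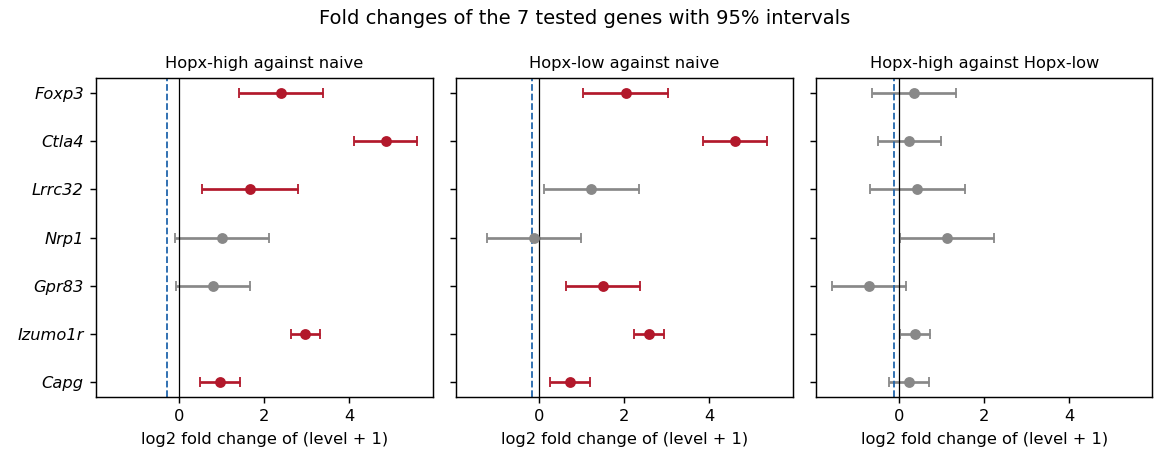
Log2 fold changes of (level + 1) for the 7 tested genes with 95% intervals from limma, for each activated group against naive and for the activated groups against each other. Red marks genes called higher, grey those not called, and the dashed line is the median of all tested features. Against naive cells 5 of 7 genes were called in each panel, and none was called between the activated groups.

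Between Hopx-high and Hopx-low cells none of the 7 tested genes was called (limma, 2 at an unadjusted p below 0.05), against 2.14% of all tested features. The unadjusted p below that limit were those of Nrp1, with a difference of 1.14 ± 0.53 (adjusted p = 0.35; 95% interval 0.04 to 2.24), and Izumo1r, with 0.39 ± 0.17 (adjusted p = 0.31; 0.04 to 0.74). In 3 genes, Ctla4, Nrp1 and Izumo1r, all Hopx-high libraries were above all Hopx-low ones, as they were for 6.52% of tested features. Foxp3 differed by 0.36 ± 0.48 (adjusted p = 0.83; -0.64 to 1.36), Ctla4 by 0.25 ± 0.36 (0.85; -0.49 to 0.99), Lrrc32 by 0.44 ± 0.54 (0.81; -0.68 to 1.56) and Capg by 0.25 ± 0.23 (0.72; -0.22 to 0.71). Gpr83 was the only one of the 7 with a lower mean in Hopx-high cells, 10.2 ± 4.64 against 16.3 ± 3.89 in Hopx-low cells (SD, n = 3), a difference of -0.71 ± 0.42 that was not called (adjusted p = 0.51; -1.58 to 0.16). The sign for Foxp3 turned without Hopx-low replicate 1 (-0.044) and that for Capg without both libraries rich in Lars2 (-0.032). The intervals of Foxp3, Lrrc32, Nrp1 and Gpr83 still hold differences of more than 2-fold.

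Markers of other cell types were summed because several of the 9 genes are also transcribed outside T cells, Capg and Entpd1 in macrophages and B cells or Lrrc32 in platelets, for example. The 10 B cell markers summed to 63.2 to 99.97 in Hopx-high, 9.96 to 20.4 in Hopx-low and 13.7 to 52.0 in naive libraries, with all 10 above 1 in some library. The 8 monocyte and macrophage markers summed to 53.8 to 115 in Hopx-high, 13.5 to 34.1 in Hopx-low and 13.3 to 40.5 in naive libraries, again all 8 above 1 in some library. Both sums were thus higher in every Hopx-high library than in all others, among tested markers Cd79b, Cd22, Fcer2a and Lyz2 were called higher in Hopx-high than in naive cells, and their part in the Hopx-high values of the 9 genes was not tested. In Hopx-low against naive cells neither list had a called gene and both sums overlapped those of naive cells. The part of such cells in the Hopx-low values of the 9 genes was not tested either. Dendritic cell markers summed to 1.37 to 6.405, 0 to 4.10 and 0.329 to 1.99 in Hopx-high, Hopx-low and naive libraries with Xcr1 at 0 throughout. NK and innate lymphoid markers summed to 1.57 to 4.61, 0 to 0.747 and 0.597 to 5.77 (Klra8 at 0), neutrophil markers to 0 to 2.99, 0 and 0.538 to 5.68 (S100a8, Elane and Mpo at 0), and platelet markers to 0.690 to 1.08, 0.528 to 2.49 and 3.74 to 4.03 (Pf4 and Gp1bb at 0), in that order. In Hopx-high, Hopx-low and naive libraries CD8 markers summed to 39.3 to 45.2, 52.6 to 84.0 and 126 to 149. This sum came almost wholly from Cd8b1, while Cd8a averaged 2.05, 5.11 and 5.90. In the same order plasma cell markers summed to 32.7 to 42.6, 40.0 to 66.2 and 30.9 to 62.2, mainly through Xbp1. Erythroid markers summed to 36.0 to 96.6, 22.4 to 38.1 and 25.0 to 71.7. In the same order the stromal and endothelial sum of 126 to 179, 124 to 188 and 174 to 238 came almost wholly from Pecam1, which T cells also express.

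**Figure D3:**
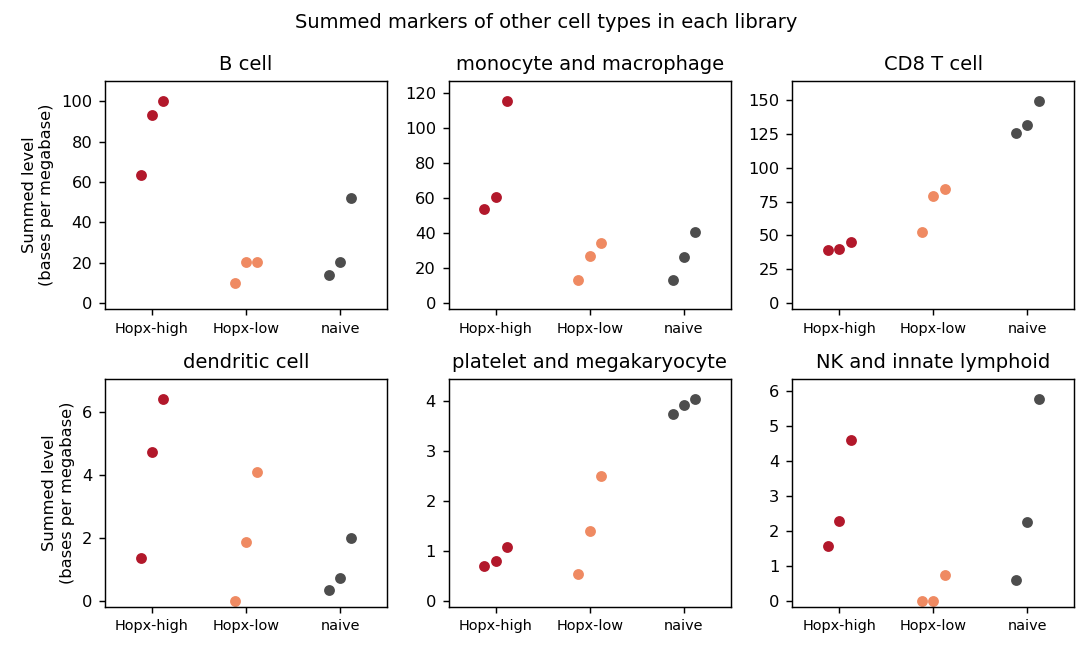
Summed levels of marker genes of other cell types (vertical axes, bases per megabase, linear, different for each list) in Hopx-high, Hopx-low and naive libraries, each group's 3 libraries drawn from lowest to highest. B cell sums were 63.2 to 99.97 and monocyte and macrophage sums 53.8 to 115 in Hopx-high libraries, above every other library.

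Of 24 other genes that mark or serve regulatory T cells, 14 could be tested, and 13 rose in each activated group against naive cells with 0 lower, where 8.41% of all tested features were higher in Hopx-high and 4.75% in Hopx-low cells. The exceptions were Il2ra in Hopx-high cells and Swap70 in Hopx-low cells (0.97 ± 0.44, limma, adjusted p = 0.192). Many of these genes are also induced by activation of conventional T cells. The list was chosen with earlier results of these data known, and its untested genes were too low to pass the filter. Penk (0 in all naive libraries), Ebi3 (0, 0 and 0.427), Ccr8 (0, 1.83 and 0) and Ikzf2 passed it through the activated libraries. Such genes could hardly be called lower, so the count beside the shares of all features is no test of the list. Ikzf2, which encodes Helios, was at 104, 229 and 149 in the Hopx-high libraries, 58.8, 82.1 and 71.6 in the Hopx-low libraries and 0, 1.27 and 0.496 in the naive libraries (6.68 ± 0.34 and 5.57 ± 0.34, limma, adjusted p = 9.07e-13 and 8.0e-11 against naive cells). Il2rb, the interleukin 2 receptor beta chain, averaged 805 ± 68.6, 654 ± 14.96 and 11.5 ± 4.70 in Hopx-high, Hopx-low and naive cells (SD, n = 3). Cd83, an activation marker gene, averaged 81.4 ± 8.79, 52.2 ± 15.96 and 1.97 ± 0.367, and Tnfrsf9, the costimulatory receptor 4-1BB, averaged 165 ± 11.6, 218 ± 40.9 and 2.57 ± 1.08, in the same order. The high-affinity chain of the interleukin 2 receptor, Il2ra (CD25), was at 7.07, 11.8 and 6.46 in Hopx-high, 17.0, 25.6 and 18.1 in Hopx-low and 4.93, 7.59 and 7.28 in naive libraries. Il2ra rose in Hopx-low cells (1.48 ± 0.38, adjusted p = 0.014), in Hopx-high cells its change was 0.29 ± 0.38 (adjusted p = 0.60), and the difference between the activated groups was not called (-1.19 ± 0.38, adjusted p = 0.13). Between the activated groups 0 of the 14 genes were called (5 at an unadjusted p below 0.05), and 2, Ikzf2 and Ebi3, were higher in Hopx-high cells with upper-quartile scaling (1.23 and 1.63, adjusted p = 0.0274 and 0.034). The list's median log2 fold change was 3.81 for Hopx-high and 3.13 for Hopx-low against naive cells, beside -0.29 and -0.16 for all features.

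**Figure D4:**
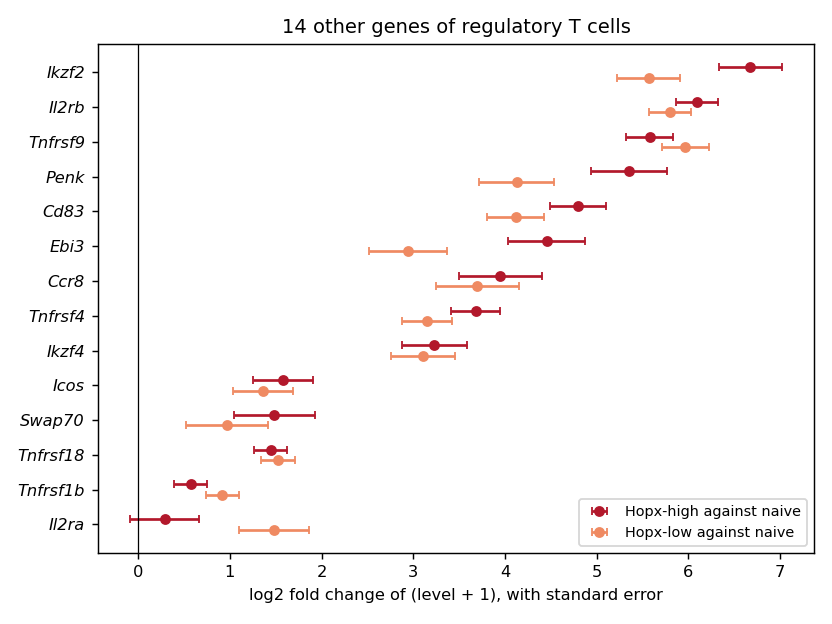
Log2 fold changes of (level + 1) with standard errors for the 14 tested genes of the list of other regulatory T cell genes, for Hopx-high against naive (dark, upper point of each pair) and Hopx-low against naive (light, lower point). They range from 0.29 for Il2ra in Hopx-high cells to 6.68 for Ikzf2 in Hopx-high cells.

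Genes held lower in regulatory than in conventional CD4+ T cells moved less evenly. Of 11, 9 were tested, and 4 fell and 0 rose in each activated group against naive cells, where 15.1% and 3.64% of all tested features were lower. Satb1, a chromatin organiser repressed by Foxp3, averaged 299 ± 55.7 in Hopx-high, 531 ± 103 in Hopx-low and 811 ± 43.97 in naive cells (-1.45 ± 0.18 and -0.63 ± 0.18, limma, adjusted p = 2.32e-06 and 0.0302 against naive cells). Il7r, the interleukin 7 receptor gene, averaged 7.29 ± 6.96, 12.4 ± 6.85 and 76.2 ± 34.0, and Igfbp4 averaged 23.5 ± 1.93, 256 ± 73.1 and 609 ± 167, in the same order, all of them lower in both. Actn1 fell in Hopx-high cells (-0.83 ± 0.19, adjusted p = 0.0029) and Dapl1 in Hopx-low cells (-1.18 ± 0.28, adjusted p = 0.0090). With upper-quartile scaling Tcf7 was also called, as higher, in Hopx-high cells (0.43, adjusted p = 0.032). The list's median was -0.52 for Hopx-high and -0.50 for Hopx-low cells, beside -0.29 and -0.16 for all features.

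Among 24 genes for inducers and cofactors of Foxp3, all tested, 5 rose and 5 fell in Hopx-high cells, and 5 rose and 0 fell in Hopx-low cells, against naive cells. The shares higher were 20.8% in both, beside the 8.41% and 4.75% of all features. The share lower in Hopx-high cells, also 20.8%, lies near the 15.1% of all features, and the list's median there was -0.28, beside -0.29 for all features. This list and the DNA methylation list below were chosen with earlier results of these data known, so their counts are no test. The genes that rose in both were Stat5a, which carries the interleukin 2 signal, the NFAT gene Nfatc1, and Irf4, Nr4a1 and Nr4a3, which T-cell receptor signals induce. Stat5a averaged 525 ± 78.7 in Hopx-high, 732 ± 21.4 in Hopx-low and 313 ± 55.4 in naive cells, Irf4 averaged 172 ± 23.7, 186 ± 53.6 and 9.17 ± 2.99, and Nr4a1 averaged 362 ± 80.5, 624 ± 67.4 and 50.2 ± 6.69 (SD, n = 3). Runx1, Smad4, Foxo3 and Ets1 fell in Hopx-high cells, by 0.89, 0.84, 0.68 and 0.63 on the log2 scale, as did Runx3, which lies at the threshold (-0.53 ± 0.19, adjusted p = 0.050 after rounding). With upper-quartile scaling Runx3, Foxo3 and Ets1 were not called (limma, adjusted p = 0.209, 0.0728 and 0.0886). Rel was then called higher in Hopx-high (1.16, adjusted p = 0.0169) and Hopx-low cells (1.25, adjusted p = 0.0196). The list then had 6 genes higher and 2 lower in Hopx-high cells, and 6 higher and 0 lower in Hopx-low cells. Of 8 genes that set or remove DNA methylation, 2 rose in each activated group, 25% against the 8.41% and 4.75% of all features: Uhrf1, which guides maintenance methylation (122 ± 15.6, 49.0 ± 8.69 and 5.20 ± 0.741 in Hopx-high, Hopx-low and naive cells), and the methyltransferase gene Dnmt3a (277 ± 38.1, 280 ± 36.5 and 144 ± 29.4).

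The partners of each surface molecule were counted in the same way, and each count holds 1 to 3 genes. Over all features 8.41% were higher and 15.1% lower in Hopx-high, and 4.75% and 3.64% in Hopx-low cells, so that 1 gene of 7 to 10 is near the Hopx-high background and is no result about a list. Around CTLA-4, 1 of 10 tested genes rose in both activated groups, Cd86, a ligand typical of B cells and myeloid cells that T cells can also express (11.0 ± 2.32, 3.53 ± 1.27 and 0.431 ± 0.538 in Hopx-high, Hopx-low and naive cells). The B cell and macrophage marker sums given above were also highest in the Hopx-high libraries, and their part in the Cd86 values was not tested. Lrba, which protects CTLA-4 from degradation, and the PI3-kinase subunit gene Pik3r1 fell in both, and Def6 fell in Hopx-high cells (-0.44 ± 0.16, adjusted p = 0.049). With upper-quartile scaling Def6 was not called (limma, adjusted p = 0.341), and Prkch was called higher in Hopx-high cells (0.62, adjusted p = 0.00505). Around GARP, Tgfb1, which encodes the cytokine GARP presents, was the 1 of 8 tested genes that rose, at 140 ± 15.4, 148 ± 24.9 and 90.9 ± 2.00, and Smad7, the feedback inhibitor of TGF-beta signals, fell to 118 ± 10.3 in Hopx-high and 241 ± 20.9 in Hopx-low cells, against 401 ± 38.1 in naive cells. Nrros, another carrier of latent TGF-beta, fell in Hopx-high cells (-0.61 ± 0.17, adjusted p = 0.0098) but was not called with upper-quartile scaling (-0.38, adjusted p = 0.0781). Around Nrp1, its paralogue Nrp2 rose in Hopx-high cells, at 11.9, 9.85 and 9.29, against 0.391, 2.01 and 0.681 in Hopx-low and 0, 0 and 0.673 in naive libraries. As for Cd86, the part of B cells and macrophages in the Nrp2 values was not tested. Nrp2 passed the filter through the Hopx-high libraries and Cd86 (0.260, 1.03 and 0 in naive libraries) through the activated ones. Both could hardly be called lower against naive cells. Sema4a, a ligand of Nrp1, fell in both groups, and Plxna1 and Vegfa fell in Hopx-high cells, of 7 tested. With upper-quartile scaling the Hopx-high calls of Sema4a and Vegfa were lost (adjusted p = 0.0624 and 0.0596), and Gipc1, an adaptor that binds Nrp1, was called higher in Hopx-high (0.81) and Hopx-low cells (0.69).

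Of 15 genes for extracellular nucleotides and adenosine, 11 were tested. In Hopx-high cells 4 rose and 1 fell, and in Hopx-low cells 2 rose and 0 fell. Over all features 8.41% and 4.75% were higher and 15.1% and 3.64% lower. The adenosine receptor gene Adora2a and the nucleoside transporter gene Slc29a1 rose in both activated groups, with Adora2a at 115 ± 22.8, 86.5 ± 8.46 and 48.1 ± 8.69 and Slc29a1 at 124 ± 20.1, 143 ± 25.8 and 48.6 ± 13.8 in Hopx-high, Hopx-low and naive cells. Adenosine kinase (Adk, 1.01 ± 0.33, adjusted p = 0.031) and the ATP-gated channel gene P2rx7 (2.03 ± 0.44, limma, adjusted p = 0.0046) rose and P2rx4 fell (-1.38 ± 0.35, adjusted p = 0.0068) in Hopx-high cells alone among these calls, and the differences to Hopx-low cells were not called. Of 4 folate receptor and carrier genes 2 were tested, and Slc19a1, the reduced folate carrier, rose in both (103 ± 8.57, 151 ± 9.40 and 46.3 ± 12.01), while the receptor genes Folr1 and Folr2 were listed at 0 in all 9 libraries. Of 7 tested gelsolin family and actin capping genes 1 was called in each activated group. Svil fell in Hopx-high cells (-0.95 ± 0.32, limma, adjusted p = 0.037) and Capza2 in Hopx-low cells (-1.03 ± 0.32, adjusted p = 0.047). Over all features 15.1% and 3.64% were lower in these comparisons, and a count of 1 gene is no result about the list. With upper-quartile scaling Svil was not called (-0.72, adjusted p = 0.0668) and Capzb was called higher in Hopx-high cells (0.55, adjusted p = 0.0124).

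The features whose pattern over the 9 libraries was most like that of each gene were found by the root-mean-square distance between log2 levels centred on each feature's own mean, in log2 units. Nearest to Foxp3 were Bcl6 (0.310), Apol9b (0.311) and Rad54l (0.347), to Ctla4 Ntn1 (0.313), Colq (0.372) and Pla2g4f (0.405), and to Izumo1r Cdca7 (0.137), Igsf3 (0.172) and Pdcd1 (0.223). Nearest to Lrrc32 were Tnnt1 (0.228), Ptgfrn (0.347) and Shf (0.370), to Nrp1 Frmd4b (0.203), Zfp867 (0.293) and Stk39 (0.294), to Gpr83 Tnfrsf21 (0.249), Odc1 (0.309) and Sord (0.334), and to Capg Klc3 (0.134), Smarcb1 (0.141) and Nsg2 (0.149). Among the 7 genes themselves the closest pair was Gpr83 and Capg (0.496), then Foxp3 and Izumo1r (0.587), and the most distant was Ctla4 and Nrp1 (2.15), so no pair of the 7 was as close as each gene's nearest features. These distances share libraries, depth and group differences and carry no test.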

How the data were processed

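Total RNA was depleted of ribosomal RNA and sequenced from 9 Ion Torrent libraries, 3 per group, per the labels' protocols. The submitters' processing notes name bedtools and mm10. The sources used here name no aligner and do not state whether strand was used. The values deposited by the authors are a signal: subtracting the least value of a column after scaling gave whole bases covered for 100% of values (tolerance 1e-06), so each is aligned bases over a feature plus 1, scaled to a common library total. Bases were divided by the megabases in the library, and features at a level of 1 or more in 3 libraries were kept. limma 3.58.1 (R 4.3.3) was run on log2(level + 1) with trend and robust settings over all 9 libraries, with Benjamini-Hochberg adjustment at 0.05. Gene positions and promoters come from RefSeq, GRCm38.p6, to which 23076 of 23219 names matched. The small RNA tables were not used here.

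Named genes are the 9 genes, up to 4 per list with the smallest adjusted p, genes a small count refers to, and 3 nearest features per gene. Members and lists were chosen with earlier results of these data known. In all, 24 alternatives were tried, and the fitting script was tested on simulated data. Depth was 105 to 329 megabases per library.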

Additional observations from a re-analysis of the deposited data

Results flagged for a closer look

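Between the activated groups limma called none of the 7 tested genes of the 9 (Entpd1 and Nt5e were not tested; 2 had an unadjusted p below 0.05) and 10 of 130 tested genes of the lists beside them, against 2.14% of all tested features. Satb1 was lower in Hopx-high than in Hopx-low cells by a log2 difference of -0.82 (adjusted p = 0.0127). Igfbp4 differed by -3.35 in the same comparison (adjusted p = 1.63e-08). Nr4a1 differed by -0.80 (adjusted p = 0.0247). Smad7 differed by -1.03 (adjusted p = 0.000915). Uhrf1 was higher in Hopx-high than in Hopx-low cells by 1.30 (adjusted p = 0.00716). Nrp2, which passed the filter through the Hopx-high libraries, was higher by 2.56 (adjusted p = 0.00366). The B cell marker genes Cd79a, Cd79b and Cd22 were higher by 1.76, 2.05 and 2.33 (adjusted p = 0.0474, 0.0126 and 0.0353). Csf1r, a macrophage marker gene, was higher by 2.64 (adjusted p = 0.0365).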

How the results depend on the processing

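Ctla4 and Izumo1r kept their direction and call against naive cells under all 24 alternatives, as did Foxp3 in Hopx-high cells. Of the 9 genes, 5 were called in Hopx-low against naive cells, but 3 with no filter, 3 at an adjusted p below 0.01, 2 with replicates 1 and 2 alone and 2 to 5 with 1 library left out. For Hopx-high against naive cells the count was 3 with replicates 1 and 2 alone and 4 to 5 with 1 library left out, and between the activated groups it was 0 throughout. Over all features, calls between the activated groups numbered 143 on the deposited scale, 159 without trend and robust settings, 154 with pseudocount 0.1, 71 with replicates 1 and 2, 111 at an adjusted p below 0.01 and 127 to 278 with 1 library left out. For Hopx-low against naive cells these were 614 without trend and robust settings, 497 with replicates 1 and 2, 517 at 0.01 and 576 to 1169 with 1 library left out, and for Hopx-high against naive cells 1126 with replicates 1 and 2, 1442 at 0.01 and 1710 to 3138. Calls over the pathway lists between the activated groups were 11 with pseudocount 5 and 1 with replicates 1 and 2, and 28 for Hopx-high against naive cells with replicates 1 and 2. Nrp1 in Hopx-low against naive cells turned to 0.36 without Hopx-low replicate 1 or without both libraries rich in Lars2, and to 0.21 without naive replicate 1 (range -0.51 to 0.36 with 1 library left out). Foxp3 between the activated groups turned to -0.044 without Hopx-low replicate 1 (range -0.044 to 0.78), and Capg there to -0.032 without both libraries rich in Lars2. The cause was not tested.

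Same-numbered replicates did not deviate together in every comparison (correlations -0.132 to 0.191), and the main fit did not take the numbers as pairs. Between Hopx-high and Hopx-low cells the correlations were 0.191, 0.141 and 0.0606 for replicates 1, 2 and 3. The numbers also follow the Xist and Ddx3y difference given above, which the main fit holds no term for, so a shared structure remains possible. With a replicate block the 9 genes gave 5, 5 and 0 calls in Hopx-high and Hopx-low cells, each against naive cells, and between the activated groups, all features 2677, 970 and 255, and the pathway lists 45, 36 and 7. Depth limits Nrp1, Lrrc32, Entpd1 and Nt5e most, since their values rest on few reads.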
